A study of Mus musculus with 24 samples.

Results

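Keratin genes were measured in 4T1-T mouse mammary tumor cells, and 10 of them are described here: the simple keratins Krt7, Krt8, Krt18 and Krt19, the basal keratins Krt5, Krt14, Krt17 and Krt6a, and Krt20 and Krt80. They were chosen by symbol from the 23478 gene symbols in the table. The study sequenced RNA from cells that had been recovered from lung metastases or from primary tumors, selected in 6-thioguanine (6TG) and replated in DMEM with non-essential amino acids. At each site the cells carried the hairpin shAsns-1 or shAsns-2, both directed at Asns, the asparagine synthetase gene, or the control hairpin shRenilla. The 6 groups, lung shAsns-1, lung shAsns-2, lung shRenilla, tumor shAsns-1, tumor shAsns-2 and tumor shRenilla, hold 4 libraries each, lettered A to D. All groups share the 4T1-T line, the 6TG selection and the culture after isolation, and the labels give no age or strain of a host and do not say whether a library is a separate animal, culture or RNA preparation. Every p-value below therefore measures the spread between libraries only, which may be technical.

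Keratins form the intermediate filaments of epithelial cells, and a filament needs a type I and a type II keratin as partners. In the mammary gland the pair of Krt8 (type II) and Krt18 (type I), with Krt7 (type II) and Krt19 (type I), is typical of the luminal cells that line the ducts. Krt5 (type II) and its partner Krt14 (type I) are typical of the basal cells around them, and Krt6a, Krt16 and Krt17 are known from activated or wounded stratified epithelium.

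Total counts ran from 8.48 M (M, 1e6 counts) in tumor shAsns-2 library A to 38.05 M, with a median of 28.7 M. In lung, shRenilla library B and shAsns-2 library D were taken to stand apart from the rest of their groups, so results that rest on them are also given without them. By the gap to the nearest library of the group, shRenilla B was flagged for 4 of the 6 tested keratins and shAsns-2 D for none. Library D was lowest of lung shAsns-2 for Krt8 and Krt18, so leaving it out raised the group's means of these genes. Calls gained in that way depend on this choice. Asns goes against one label. It averaged 194 ± 18.2 CPM (a gene's counts scaled to a library of 1e6 counts; mean ± SD, n = 4 libraries in every group) in the lung libraries labelled shAsns-1, 44.6 ± 6.51 CPM in lung shAsns-2 and 63.6 ± 7.89 CPM in lung shRenilla. In tumor-derived cells it averaged 170 ± 17.1 CPM in the libraries labelled shAsns-1, 36.8 ± 10.3 CPM in shAsns-2 and 82.8 ± 15.9 CPM in shRenilla. For the libraries labelled shAsns-1, a direction below is thus one between labels and not an effect of a lowered Asns. In shAsns-2, Asns was lower than in shRenilla in tumor-derived cells (log2 fold change -1.18 ± 0.16 SE, edgeR adjusted p = 0.00122). In lung-derived cells it was not called (-0.51 ± 0.16, adjusted p = 0.405), although all shAsns-2 libraries lay below all of shRenilla. As epithelial and mesenchymal markers of the line, Cdh1 (E-cadherin) averaged 20.3 to 244 CPM, Epcam 10.9 to 125 CPM and Vim (vimentin) 2763 to 4355 CPM over the groups. The 7 endothelial markers were all under 1 CPM in each library, as were 11 of 13 lung epithelial markers, among them Sftpc, Sftpb, Scgb1a1 and Nkx2-1. The other 2 of these, Aqp5 and Lamp3, were present in cells of both sites. Aqp5 averaged 11.1 ± 3.32 CPM in lung shRenilla, 15.7 ± 1.91 CPM in tumor libraries labelled shAsns-1 and 5.44 ± 1.35 CPM in tumor shRenilla; it was higher than in tumor shRenilla in both (1.03 ± 0.23, adjusted p = 0.00177, in lung and 1.53 ± 0.23, adjusted p = 1.31e-05, in tumor shAsns-1). Lamp3 averaged 48.4 ± 2.63 CPM in lung shRenilla, 33.3 ± 5.90 CPM in tumor shAsns-1 and 54.2 ± 10.5 CPM in tumor shRenilla, and was lower in tumor shAsns-1 (-0.70 ± 0.17, adjusted p = 0.00232). The 13 markers summed to 33.1 to 68.5 CPM over all libraries, and their part in the keratin differences was not tested.

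Among the 10 members, most of the keratin RNA was that of the simple pair Krt8 and Krt18, in every group. Per kilobase of transcript, Krt18 averaged 156 to 233 CPM per kb over the 6 groups and Krt8 88.7 to 114 CPM per kb. Krt18 made up 66.3 ± 1.08% of the members' summed level per kb in lung shRenilla and 52.9 ± 4.76% in tumor shRenilla, and Krt8 30.4 ± 1.28% in lung shRenilla and 29.2 ± 3.43% in tumor shRenilla. The next members on the same scale were Krt14, at 3.33 to 29.9 CPM per kb, and Krt7, at 1.13 to 21.2 CPM per kb. In tumor shRenilla, Krt14 made up 9.8 ± 0.77% of the members' sum and Krt7 6.4 ± 0.99%. Krt10, which is not a member and not in this sum, averaged 17.0 to 20.1 CPM per kb. Krt19 averaged 2.40 to 4.51 CPM per kb and Krt17 0.158 to 1.82 CPM per kb.

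The other basal keratins were nearly absent. Krt5, the type II partner with which Krt14 builds filaments in basal cells, had no count in any of the 24 libraries; a count of 0 allows a level of up to 0.00436 CPM over all libraries (3 counts, counting error only). Krt6a had 3 counts in all, 1 in each of 3 libraries. Most of the Krt6a transcript, 66.6% of its 31-base words, also occurs in other genes, mainly Krt6b, which had 2 counts in all, so reads that could not be placed may be missing for both. Krt20, an intestinal and urothelial type I keratin, had 11 counts in 7 libraries, and Krt80, a type II keratin widely found in epithelia, had 72 counts in 20 libraries. These 4 members did not pass the filter on low counts. Of Krt80, tumor shAsns-1 held 6 counts and tumor shRenilla 18, and lung shRenilla held 14; the exact permutation tests of 4 against 4 libraries gave p = 0.371 for tumor shAsns-1 against tumor shRenilla and p = 0.771 for lung shRenilla against tumor shRenilla (two-sided). Counts this low could not show a difference at this depth. The 6 members with enough counts for a test were Krt7, Krt8, Krt18, Krt19, Krt14 and Krt17.

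Krt8 varied little between groups. It had 171, 184, 184 and 157 CPM in lung libraries labelled shAsns-1 (A to D), 286, 263, 207 and 138 CPM in lung shAsns-2, and 195, 140, 197 and 196 CPM in lung shRenilla. In tumor-derived cells it had 206, 245, 190 and 184 CPM in libraries labelled shAsns-1, 201, 206, 232 and 230 CPM in shAsns-2, and 165, 181, 184 and 166 CPM in shRenilla. The 6 group means lay between 174 and 223 CPM, within 1.28-fold, and each group overlapped the next one in the order of the means. The highest and lowest single library, at 286 and 138 CPM, were both of lung shAsns-2. The Krt8 transcript shares 36.1% of its 31-base words with other genes, most of them with the pseudogene Krt8-ps, so its count depends on how the authors' alignment placed such reads.

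Krt18, the partner of Krt8, differed by at most 1.495-fold between group means, with the groups in another order than for Krt8. It had 235, 239, 199 and 225 CPM in lung libraries labelled shAsns-1, 422, 396, 351 and 174 CPM in lung shAsns-2, and 328, 207, 321 and 321 CPM in lung shRenilla. The tumor-derived libraries had 242, 267, 259 and 207 CPM in libraries labelled shAsns-1, 287, 281, 317 and 210 CPM in shAsns-2, and 257, 254, 181 and 242 CPM in shRenilla. The spread within lung shAsns-2, from library A to library D, was wider than the distance between any of the group means, which lay between 224 and 335 CPM. The library that was lowest of lung shAsns-2 for Krt8 was also lowest for Krt18, and so was the lowest of lung shRenilla. The log2 ratio of Krt8 to Krt18 per kb stayed between -1.13 ± 0.08 in lung shRenilla and -0.69 ± 0.15 in tumor shAsns-1.

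Krt7, the other type II simple keratin, did not share this evenness. It had 3.47, 7.01, 3.67 and 4.32 CPM in lung libraries labelled shAsns-1, 12.2, 14.7, 12.0 and 5.83 CPM in lung shAsns-2, and 11.8, 8.08, 12.4 and 11.8 CPM in lung shRenilla. The tumor levels were 11.0, 19.5, 11.8 and 8.41 CPM in libraries labelled shAsns-1, 73.7, 91.8, 95.3 and 85.9 CPM in shAsns-2, and 71.1, 85.0, 87.0 and 73.4 CPM in shRenilla. The 8 libraries of tumor shAsns-2 and tumor shRenilla, from 71.1 to 95.3 CPM, lay above the other 16, from 3.47 to 19.5 CPM. The group means spanned 18.8-fold, against 1.28-fold for Krt8. The tumor libraries labelled shAsns-1 overlapped lung shAsns-2, which overlapped lung shRenilla, and all lung libraries labelled shAsns-1 lay below lung shRenilla.

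Krt14, the type I keratin of basal cells, had a like pattern. It had 8.45, 7.86, 7.62 and 7.41 CPM in lung libraries labelled shAsns-1, 7.13, 10.0, 9.47 and 12.5 CPM in lung shAsns-2, and 8.83, 5.26, 10.5 and 8.64 CPM in lung shRenilla. In tumor it had 6.48, 5.82, 4.99 and 5.33 CPM in libraries labelled shAsns-1, 36.9, 32.8, 54.4 and 44.5 CPM in shAsns-2, and 51.5, 55.5, 50.1 and 46.2 CPM in shRenilla. Tumor shAsns-2 and tumor shRenilla, which overlapped each other, lay between 32.8 and 55.5 CPM and the other 16 libraries between 4.99 and 12.5 CPM. The lowest group was tumor shAsns-1, all of whose libraries lay below all lung libraries labelled shAsns-1.

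Krt17, a type I keratin of activated and basal-like epithelium, was scarcer and had a like order. It had 0.571, 0.856, 0.428 and 0.695 CPM in lung libraries labelled shAsns-1, 0.855, 0.774, 0.586 and 0.569 CPM in lung shAsns-2, and 0.417, 0.289, 1.51 and 0.864 CPM in lung shRenilla. The tumor libraries held 0.343, 0.385, 0.113 and 0.139 CPM in libraries labelled shAsns-1, 2.15, 1.40, 2.70 and 2.02 CPM in shAsns-2, and 3.41, 3.71, 1.67 and 2.52 CPM in shRenilla. Lung shRenilla C, at 1.51 CPM, was the only lung library within the range of tumor shAsns-2, and tumor shAsns-1 was again lowest, with 28 counts over its 4 libraries. Krt14 and Krt17 share sequence: 29.2% of the 31-base words of Krt14 occur in other genes, most often in Krt16, and 15.8% of those of Krt17, most often in Krt14. Reads could thus be split between them.

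Krt19, a type I keratin that pairs with Krt7 or Krt8 in luminal cells, differed by at most 1.88-fold between group means. It had 3.92, 3.35, 3.29 and 4.79 CPM in lung libraries labelled shAsns-1, 5.57, 6.10, 5.01 and 4.02 CPM in lung shAsns-2, and 4.32, 2.12, 4.55 and 4.62 CPM in lung shRenilla. Tumor values were 3.36, 4.70, 3.72 and 3.33 CPM in libraries labelled shAsns-1, 6.45, 7.82, 8.08 and 6.07 CPM in shAsns-2, and 6.64, 5.45, 3.97 and 6.55 CPM in shRenilla. Each group overlapped the next one in the order of the means, from 3.78 CPM in tumor shAsns-1 to 7.11 CPM in tumor shAsns-2. In all of these bulk libraries, fewer cells with a keratin and less of its RNA per cell cannot be told apart.

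**Figure D1:**
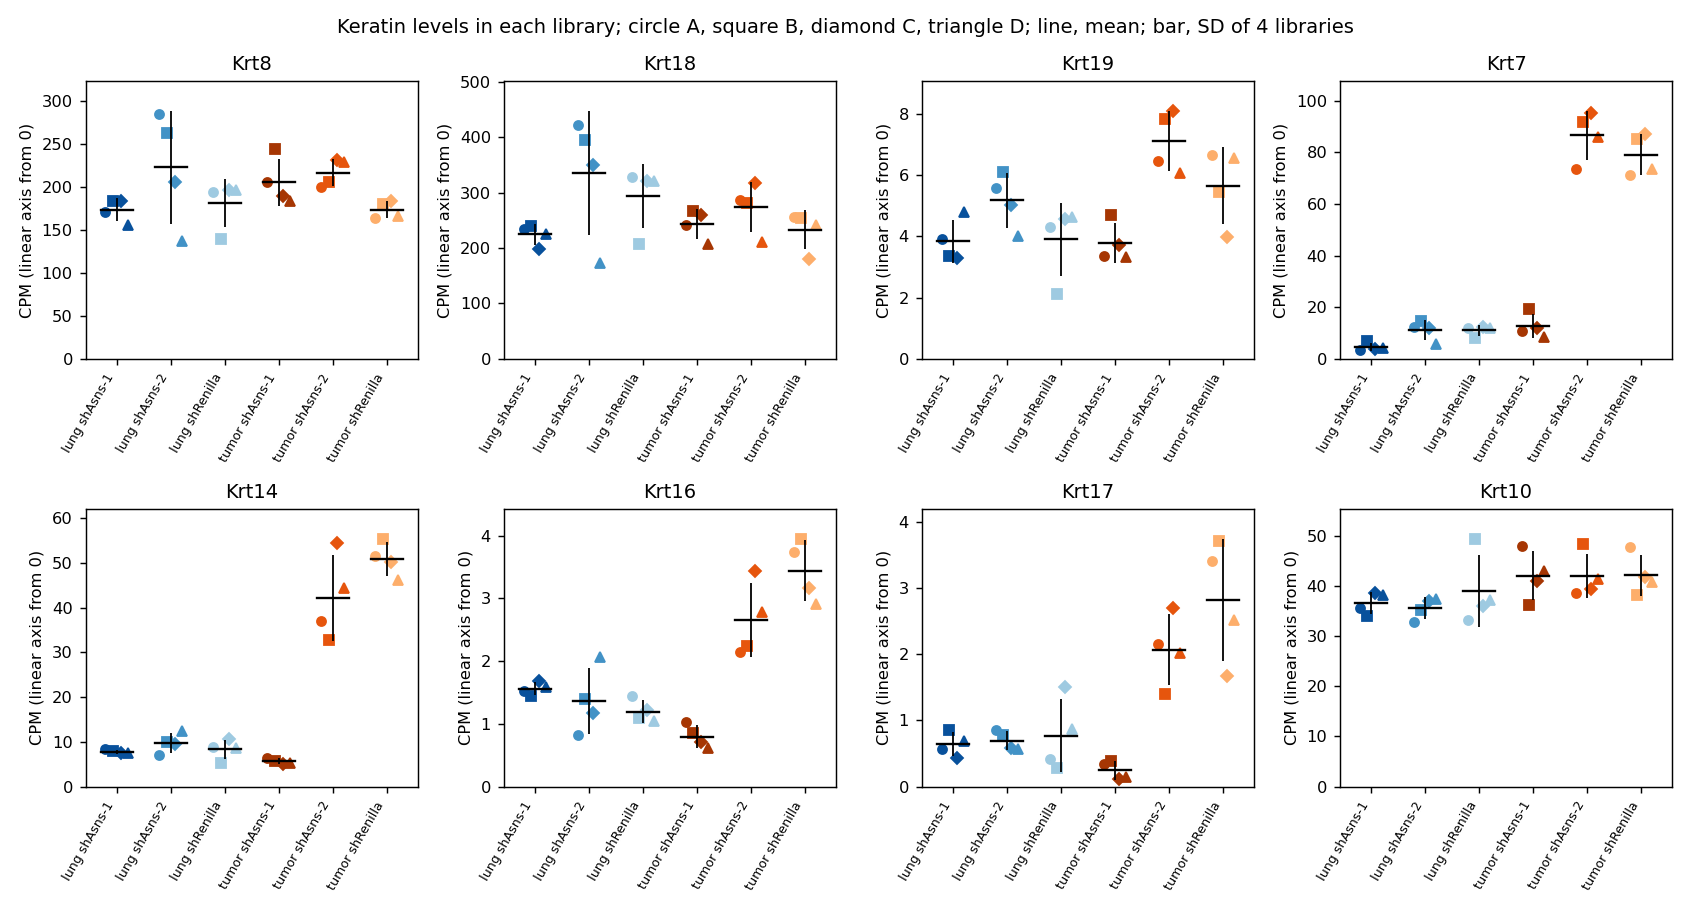
CPM in each library (points, by letter) for 8 keratins on linear axes from 0, with the mean (line) and SD (bar) of the 4 libraries in each group, lung groups left of tumor groups. Krt7, Krt14, Krt16 and Krt17 are high in tumor shAsns-2 and tumor shRenilla and low in the other 4 groups, while Krt8, Krt18 and Krt10 are at similar levels throughout.

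The genes lie in the keratin clusters of the mouse genome. On chromosome 15 (GRCm38, GENCODE M21) Krt7 is at 101412402 to 101430313, plus strand, Krt8 at 101996698 to 102004482, minus strand, and Krt18, the only type I gene there, at 102028180 to 102032027, plus strand. Krt8 and Krt18 are 23.7 kb apart and Krt7 lies 566 kb from Krt8. On chromosome 11, minus strand, Krt14 (100203162 to 100207548), Krt16 and Krt17 (100256217 to 100261029) fall within 57.9 kb, and Krt19 (100140810 to 100146120) lies 57.0 kb from Krt14. Krt14, Krt16 and Krt17, all high in tumor shAsns-2 and tumor shRenilla, are thus near neighbours. Krt7, high in the same groups, is on the other chromosome, and Krt19, in the cluster on chromosome 11, differed by less.

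The promoter windows of the 3 simple type II and type I genes on chromosome 15 are shown because Krt7 departed from Krt8 and Krt18. They run from 250 bases before to 50 after the RefSeq start (GRCm38.p6), 5′ to 3′ on the gene's strand, for chr15:101412153-101412452 (plus), chr15:102004293-102004592 (minus) and chr15:102027966-102028265 (plus). Capitals mark matches on either strand to a GC box (GGGCGG), an E-box (CACCTG) or a TATA motif (TATAAA). The AP-1 motif (TGANTCA) was searched too and matched none of the 3.
Krt7: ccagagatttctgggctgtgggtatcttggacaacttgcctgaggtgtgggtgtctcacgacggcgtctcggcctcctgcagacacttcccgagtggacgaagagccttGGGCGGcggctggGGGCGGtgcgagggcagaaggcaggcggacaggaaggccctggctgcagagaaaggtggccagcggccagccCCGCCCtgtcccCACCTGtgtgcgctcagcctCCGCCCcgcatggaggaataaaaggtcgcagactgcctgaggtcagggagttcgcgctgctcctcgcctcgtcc
Krt8: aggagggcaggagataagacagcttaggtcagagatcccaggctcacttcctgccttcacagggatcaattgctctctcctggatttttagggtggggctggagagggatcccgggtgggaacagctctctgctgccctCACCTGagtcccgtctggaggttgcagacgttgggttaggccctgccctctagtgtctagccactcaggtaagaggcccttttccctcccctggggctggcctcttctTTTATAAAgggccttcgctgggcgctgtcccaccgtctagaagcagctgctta
Krt18: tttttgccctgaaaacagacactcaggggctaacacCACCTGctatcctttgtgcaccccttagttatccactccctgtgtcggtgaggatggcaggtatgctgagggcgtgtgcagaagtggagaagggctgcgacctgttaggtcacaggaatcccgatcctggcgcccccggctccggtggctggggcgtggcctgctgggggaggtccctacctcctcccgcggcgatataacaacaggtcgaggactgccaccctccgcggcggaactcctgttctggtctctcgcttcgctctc
The Krt7 window holds 4 GC boxes, which neither of the others holds, and each window holds 1 E-box. The Krt8 window holds 2 overlapping TATA matches. Of 32851 RefSeq promoter windows of this length, 35.7% hold the GC box, 20.2% the E-box, 13.6% the TATA motif and 7.81% the AP-1 motif. The RefSeq starts of Krt8 and Krt18 lie inside the GENCODE gene models. A match is a description of these letters and not a measured binding site. RefSeq windows were present for 6 of the 10 members.

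In tumor-derived cells labelled shAsns-1 against shRenilla, 4 of the 6 tested members were lower and none was higher, where 33.9% of all 12625 tested genes were called (edgeR, adjusted p under 0.05). Krt14 averaged 5.66 ± 0.65 CPM in libraries labelled shAsns-1 and 50.8 ± 3.80 CPM in shRenilla, 8.99-fold lower (log2 fold change -3.17 ± 0.18 SE, adjusted p = 2.62e-12). Krt7 averaged 12.7 ± 4.75 CPM in libraries labelled shAsns-1 and 79.1 ± 8.02 CPM in shRenilla (-2.65 ± 0.24, adjusted p = 4.91e-09). Krt17 averaged 0.245 ± 0.139 CPM in libraries labelled shAsns-1 and 2.83 ± 0.922 CPM in shRenilla (-3.58 ± 0.42, adjusted p = 3.24e-07). For these 3 genes, all libraries labelled shAsns-1 lay below all of shRenilla. The share of all genes whose groups did not overlap was not counted, here or in the later comparisons. Krt19 was called lower as well (-0.58 ± 0.21, adjusted p = 0.0316), but its groups overlapped and the call ended when any of 6 single libraries was left out, namely A, C and D of tumor shAsns-1 and A, B and D of tumor shRenilla, with an adjusted p of 0.0517 to 0.119. Krt8 was not called (0.25 ± 0.15, adjusted p = 0.225), although every library labelled shAsns-1 lay above every shRenilla library, and without the 2 lung libraries that stood apart it was called higher at the same fold change (0.25 ± 0.10, adjusted p = 0.0387). Krt18 was not called (0.06 ± 0.19, adjusted p = 0.83). The median log2 fold change was -1.62 over the 6 members and -0.01 over all tested genes.

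Tumor shAsns-2 against shRenilla gave no call among the members in edgeR, against 0.0634% of all genes. There 1 member, Krt8, had an unadjusted p under 0.05 (0.32 ± 0.15, adjusted p = 0.696), and all its shAsns-2 libraries lay above all of shRenilla. DESeq2 and limma with library weights called none of the 6 either. Krt14 averaged 42.2 ± 9.51 CPM in shAsns-2 and 50.8 ± 3.80 CPM in shRenilla (-0.27 ± 0.17, adjusted p = 0.778), and Krt7 86.7 ± 9.44 CPM in shAsns-2 and 79.1 ± 8.02 CPM in shRenilla (0.13 ± 0.22, adjusted p = 0.925). Between the hairpins in tumor-derived cells, Krt7 (-2.78 ± 0.24, adjusted p = 3.33e-09), Krt14 (-2.90 ± 0.18, adjusted p = 1.07e-11), Krt17 (-3.13 ± 0.44, adjusted p = 6.83e-06) and Krt19 (-0.93 ± 0.21, adjusted p = 0.00173) were lower in libraries labelled shAsns-1 than in shAsns-2, so 4 of 6 members were called there, against 27.1% of all genes. For each of these 4 genes the groups did not overlap, a trait that was not counted over all genes. This comparison and the one with shRenilla use the same libraries labelled shAsns-1.

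Among lung-derived cells the only member called in edgeR was Krt7. It averaged 4.62 ± 1.64 CPM in libraries labelled shAsns-1, 11.2 ± 3.78 CPM in shAsns-2 and 11.0 ± 1.99 CPM in shRenilla. The libraries labelled shAsns-1 were lower than shRenilla (-1.27 ± 0.25, adjusted p = 0.0238), where 0.206% of all genes were called, and lower than shAsns-2 (-1.29 ± 0.25, adjusted p = 0.0197), where 0.261% were. Against shRenilla the call ended without a filter on low counts (adjusted p = 0.131), in a fit of these 2 groups alone (adjusted p = 0.199), and when any of libraries A, C and D of either group was left out (adjusted p = 0.0649 to 0.137). Against shAsns-2 it ended with no filter (adjusted p = 0.1003), in a fit of 2 groups (adjusted p = 0.214), and when A, C or D of the shAsns-1 group or A, B or C of the shAsns-2 group was left out (adjusted p = 0.056 to 0.124), and library D of lung shAsns-2, at 5.83 CPM, fell within the range of the libraries labelled shAsns-1. Lung shAsns-2 against shRenilla gave no call among the members in edgeR, with 0% of all genes called, none of the 6 at an unadjusted p under 0.05 and 1068 of all genes at that level. DESeq2 called none of the members there, and limma with library weights called Krt8 higher (0.37 ± 0.09, adjusted p = 0.00707). Krt14 was not called for lung shAsns-1 against lung shRenilla (-0.08 ± 0.18, adjusted p = 0.847).

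The level of the simple pair in lung depended on lung shAsns-2 D. With all libraries, Krt18 averaged 224 ± 18.2 CPM in libraries labelled shAsns-1 and 335 ± 112 CPM in shAsns-2 and was not called (-0.58 ± 0.19, adjusted p = 0.376). Without that library, lung shAsns-2 averaged 389 ± 36.2 CPM (n = 3) and Krt18 was lower in libraries labelled shAsns-1 (-0.82 ± 0.16, adjusted p = 0.0163), as was Krt8 (-0.55 ± 0.13, adjusted p = 0.0477). With all libraries, limma with library weights called both lower as well (Krt18 -0.78 ± 0.10, adjusted p = 1.97e-05; Krt8 -0.52 ± 0.09, adjusted p = 0.000438), and Krt18 lower than in lung shRenilla (-0.52 ± 0.10, adjusted p = 0.0036). Krt7 stayed called without lung shAsns-2 D, so that 3 of the 6 members were then lower. The share of all genes called in that fit was not counted. Between these groups limma called 1924 of all 12625 genes, against 33 in the edgeR fit of all libraries. Without both libraries that stood apart, edgeR called 180 of 12697 genes and also 3 of the 6 members.

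**Figure D2:**
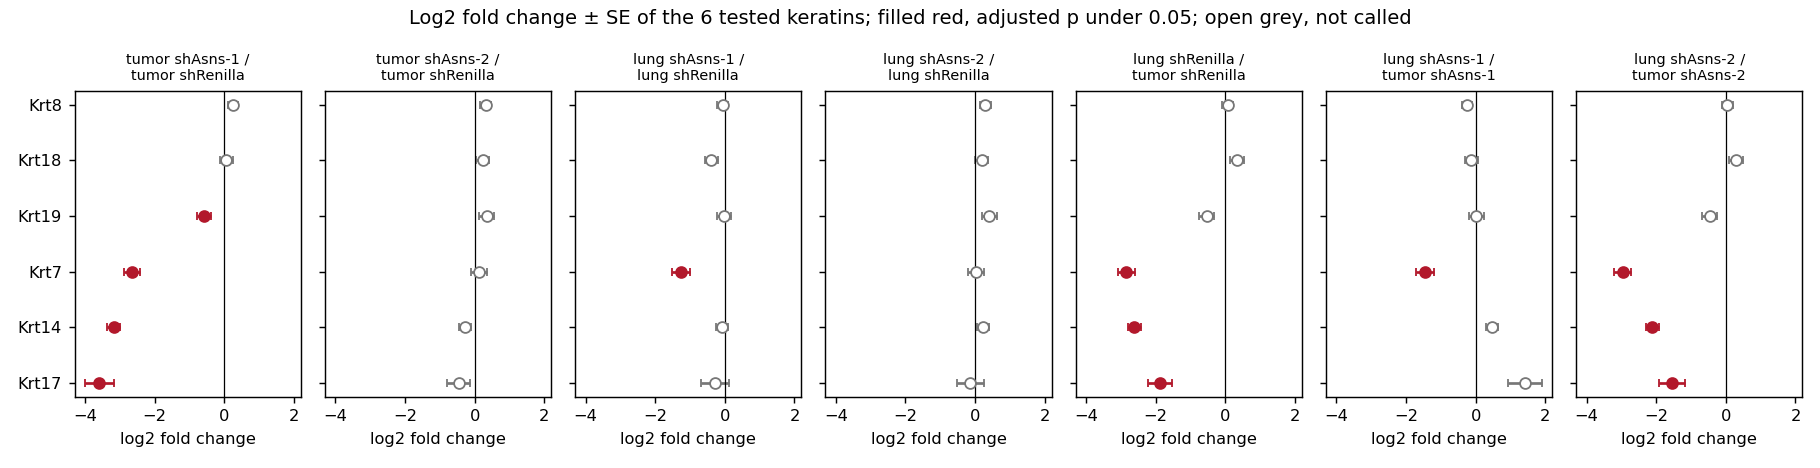
Log2 fold change ± SE (x axis) of the 6 tested keratins (rows) in 7 comparisons (panels), the first group named over the second; filled red points passed an adjusted p under 0.05 and open grey points did not. Krt7 and Krt14 lie far left of 0 in tumor shAsns-1 over tumor shRenilla, at -2.65 and -3.17, and in lung shRenilla over tumor shRenilla, at -2.84 and -2.61.

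Lung-derived cells had less Krt7, Krt14 and Krt17 RNA than tumor-derived cells with both shRenilla and shAsns-2. With shRenilla, Krt7 averaged 11.0 ± 1.99 CPM in lung and 79.1 ± 8.02 CPM in tumor, 7.17-fold lower (-2.84 ± 0.24, adjusted p = 1.92e-09), Krt14 8.32 ± 2.21 CPM in lung and 50.8 ± 3.80 CPM in tumor (-2.61 ± 0.18, adjusted p = 3.77e-11), and Krt17 0.769 ± 0.550 CPM in lung and 2.83 ± 0.922 CPM in tumor (-1.87 ± 0.36, adjusted p = 0.00033). These 3 of 6 members were called, against 21.8% of all genes, and for each all lung libraries lay below all tumor libraries. Krt8 (0.07 ± 0.15, adjusted p = 0.799), Krt18 (0.33 ± 0.19, adjusted p = 0.227) and Krt19 (-0.54 ± 0.21, adjusted p = 0.065) were not called, although Krt19 was called lower without tumor shRenilla C (-0.68 ± 0.21, adjusted p = 0.0284), by limma with library weights (adjusted p = 0.0482) and with GC and length offsets (adjusted p = 0.027). Krt18 was called higher in lung by limma with all libraries (0.42 ± 0.12, adjusted p = 0.00685) and by edgeR without the 2 lung libraries that stood apart (0.47 ± 0.12, adjusted p = 0.00527), with lung shRenilla at 323 ± 3.99 CPM (n = 3) and tumor shRenilla at 233 ± 35.7 CPM.

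With shAsns-2 the same 3 members were called lower in lung, against 20.9% of all genes. Krt7 averaged 11.2 ± 3.78 CPM in lung and 86.7 ± 9.44 CPM in tumor (-2.95 ± 0.24, adjusted p = 1.55e-09), Krt14 9.79 ± 2.22 CPM in lung and 42.2 ± 9.51 CPM in tumor (-2.11 ± 0.18, adjusted p = 1.91e-09), and Krt17 0.696 ± 0.141 CPM in lung and 2.07 ± 0.536 CPM in tumor (-1.55 ± 0.37, adjusted p = 0.00364). For all 3 genes the lung and tumor libraries did not overlap. Krt18 was again called higher in lung without lung shAsns-2 D (0.54 ± 0.16, adjusted p = 0.0127) or without both libraries that stood apart (0.51 ± 0.12, adjusted p = 0.0022), and by limma with library weights (0.42 ± 0.12, adjusted p = 0.00604).

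For the shAsns-1 label, with Krt7, Krt14 and Krt17 already low in tumor-derived cells, lung against tumor gave 1 called member, Krt7, against 8.55% of all genes. Krt7 averaged 4.62 ± 1.64 CPM in lung and 12.7 ± 4.75 CPM in tumor (-1.46 ± 0.25, adjusted p = 0.000642; all lung libraries below all tumor libraries). Krt14 averaged 7.84 ± 0.45 CPM in lung and 5.66 ± 0.65 CPM in tumor (0.47 ± 0.18, adjusted p = 0.0974), and Krt17 0.638 ± 0.182 CPM in lung and 0.245 ± 0.139 CPM in tumor (1.42 ± 0.48, adjusted p = 0.0632). For both, all lung libraries lay above all tumor libraries, and both were called higher in a fit of these 2 groups alone (adjusted p = 0.00499 for Krt14 and 0.012 for Krt17) and without the 2 libraries that stood apart (adjusted p = 0.0183 for Krt14 and 0.0269 for Krt17). So in these libraries Krt7 lay lower in lung while Krt14 and Krt17 lay on the other side.

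The shAsns-1 against shRenilla difference was itself tested between the sites. The log2 fold change was more positive in lung than in tumor by 1.38 ± 0.34 for Krt7 (adjusted p = 0.00718), by 3.09 ± 0.25 for Krt14 (adjusted p = 7.13e-09) and by 3.30 ± 0.60 for Krt17 (adjusted p = 0.000419). These 3 of 6 members were called, against 14.2% of all genes. Krt8 (-0.31 ± 0.22, adjusted p = 0.349), Krt18 (-0.45 ± 0.27, adjusted p = 0.271) and Krt19 (0.56 ± 0.30, adjusted p = 0.209) were not, but without the 2 libraries that stood apart Krt8 (-0.42 ± 0.14, adjusted p = 0.0357) and Krt18 (-0.59 ± 0.17, adjusted p = 0.015) were called as well, with the opposite sign, and limma with all libraries called Krt18 (adjusted p = 0.0151). For shAsns-2 the difference between sites gave no call among the members and 0% of all genes in edgeR; Krt14 alone had an unadjusted p under 0.05 (0.50 ± 0.24, adjusted p = 0.972), as had 599 of all genes. DESeq2 called 1 gene there and limma with library weights 0, none of them a member.

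**Figure D3:**
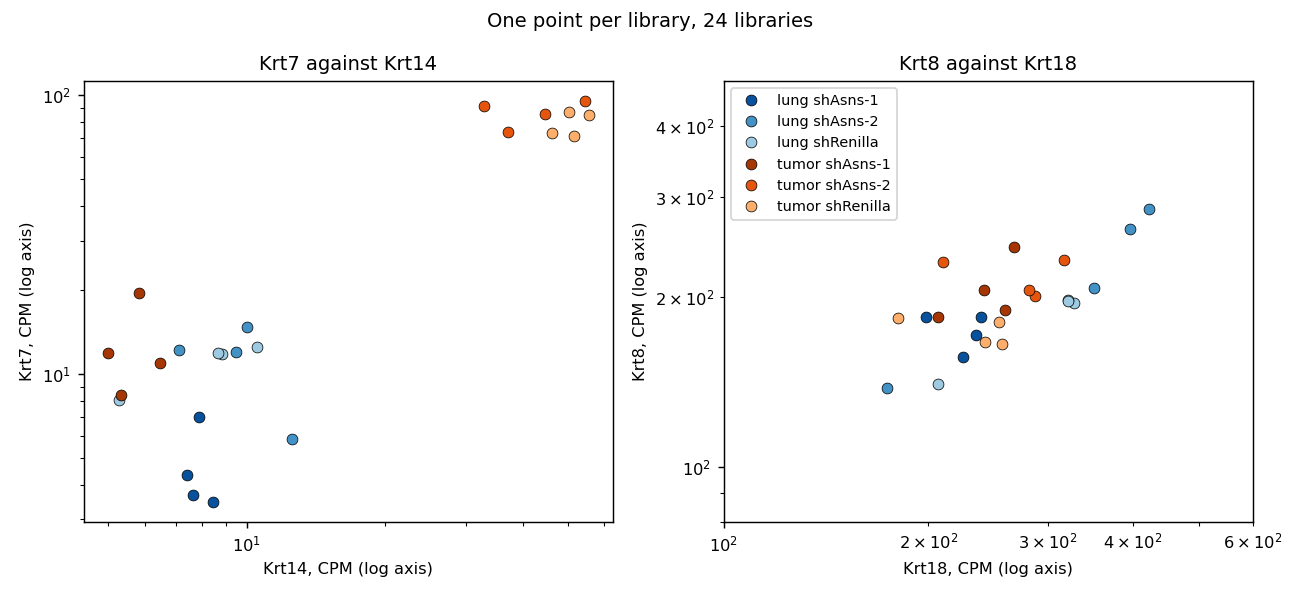
CPM of Krt7 against Krt14 (left) and of Krt8 against Krt18 (right), 1 point per library, coloured by group, on log axes. In the left panel the 8 libraries of tumor shAsns-2 and tumor shRenilla form a cloud of their own at 71.1 to 95.3 CPM of Krt7 and 32.8 to 55.5 CPM of Krt14. In the right panel no group stands apart from all others, although tumor shRenilla lies below tumor shAsns-1 and tumor shAsns-2 in Krt8.

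The ratio within a library shows the same division without any scaling between libraries. The log2 ratio of summed basal to summed simple members, in counts per kb, was -5.63 ± 0.04 in lung libraries labelled shAsns-1, -5.78 ± 0.80 in lung shAsns-2 and -5.84 ± 0.23 in lung shRenilla. Libraries A to D of lung shAsns-2 had -6.55, -6.02, -5.90 and -4.65. Its mean thus leaned on D, which lay above all other lung libraries. In tumor-derived cells the ratio was -6.33 ± 0.20 in libraries labelled shAsns-1, -3.67 ± 0.30 in shAsns-2 and -3.11 ± 0.11 in shRenilla. Basal keratin RNA was thus 6.66 times lower relative to simple keratin RNA in lung shRenilla than in tumor shRenilla, and 9.33 times lower in tumor libraries labelled shAsns-1. Nearly all of the basal sum is Krt14. Tumor shAsns-2 lay 1.47 times below tumor shRenilla, with no overlap of the libraries.

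Within the simple class, the log2 ratio of Krt7 to Krt8 was also highest in tumor shAsns-2 and tumor shRenilla. It was -6.36 ± 0.44 in lung libraries labelled shAsns-1, -5.41 ± 0.24 in lung shAsns-2 and -5.11 ± 0.05 in lung shRenilla. In tumor-derived cells it was -5.15 ± 0.34 in libraries labelled shAsns-1, -2.39 ± 0.13 in shAsns-2 and -2.20 ± 0.07 in shRenilla. In the libraries labelled shAsns-1 this ratio was lower in lung than in tumor (log2 difference -1.21), while that of basal to simple keratins was higher in lung by 0.70, with no overlap in either. The tight value of lung shRenilla includes library B, whose Krt7 and Krt8 were both low. A division of the members into simple and basal therefore did not follow the measured levels. Group means spanned 18.8-fold for the simple Krt7 and 8.99-fold for the basal Krt14. They spanned 1.28-fold for Krt8 and 1.495-fold for Krt18. These ratios are a description and were not tested.

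**Figure D4:**
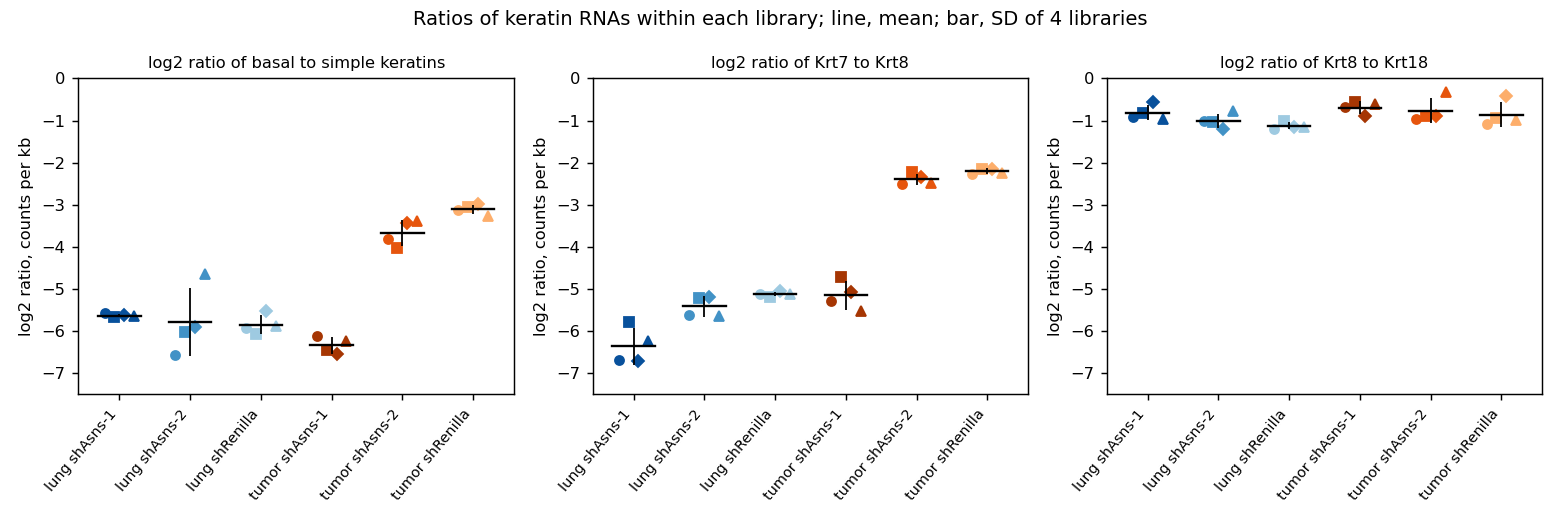
Log2 ratio within each library, in counts per kb, of basal to simple keratins, Krt7 to Krt8 and Krt8 to Krt18 (panels, same axis), with the mean (line) and SD (bar) of 4 libraries per group. The first 2 ratios are higher in tumor shAsns-2 and tumor shRenilla, at -3.67 and -3.11 and at -2.39 and -2.20, while Krt8 to Krt18 stays between -1.13 and -0.69.

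Of the 42 other keratin symbols in the table, 4 passed the filter: Krt10, Krt13, Krt16 and Krt27. Krt16, a type I keratin of activated epidermis, had 1.52, 1.44, 1.69 and 1.58 CPM in lung libraries labelled shAsns-1, 0.823, 1.39, 1.17 and 2.06 CPM in lung shAsns-2, and 1.44, 1.09, 1.22 and 1.04 CPM in lung shRenilla. For tumor, the levels were 1.03, 0.848, 0.705 and 0.611 CPM in libraries labelled shAsns-1, 2.15, 2.25, 3.43 and 2.78 CPM in shAsns-2, and 3.75, 3.96, 3.17 and 2.91 CPM in shRenilla. It thus moved as Krt14 did, and it shares sequence with it. Krt16 was lower in tumor libraries labelled shAsns-1 than in tumor shRenilla (-2.12 ± 0.23, adjusted p = 7.80e-08), lower in lung than in tumor with shRenilla (-1.53 ± 0.22, adjusted p = 8.62e-06) and shAsns-2 (-0.99 ± 0.22, adjusted p = 0.00192), and higher in lung than in tumor in libraries labelled shAsns-1 (0.98 ± 0.24, adjusted p = 0.0115; 0.0542 without tumor shAsns-1 D). Krt10, a type I keratin of differentiated epidermis, averaged 35.7 to 42.1 CPM and was called in no comparison. Krt13, at 0.355 ± 0.094 CPM in tumor libraries labelled shAsns-1 and 0.080 ± 0.078 CPM in tumor shRenilla, was higher (2.08 ± 0.62, adjusted p = 0.0108), and Krt27, a hair follicle keratin, was lower in the same comparison (-0.93 ± 0.26, adjusted p = 0.00813; 0.0543 without tumor shRenilla A). Against tumor shAsns-2, Krt27 was lower too (-1.06 ± 0.27, adjusted p = 0.00456), and Krt13 was higher in lung than in tumor with shAsns-2 (1.59 ± 0.56, adjusted p = 0.0434). That last call ended in 8 of 16 alternatives, among them leaving out A, B or D of tumor shAsns-2 or A, B or C of lung shAsns-2 (adjusted p = 0.0723 to 0.1286).

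Genes of proteins that tie keratin filaments to junctions were called in both directions. In tumor libraries labelled shAsns-1 against shRenilla, 4 of 11 tested filament linkers were lower and 1 was higher, beside 33.9% of all genes called in either direction, so the share of linkers called was near that of all genes. Those with the largest changes were the plakophilin gene Pkp1 (-1.37 ± 0.24, adjusted p = 0.000109), the desmoplakin gene Dsp (-1.24 ± 0.10, adjusted p = 1.22e-09), and Eppk1, for epiplakin (-1.13 ± 0.13, adjusted p = 1.85e-07). In lung against tumor with shRenilla, 6 of 11 were lower and 1 was higher, beside 21.8% of all genes called, led by Pkp1 (-1.57 ± 0.25, adjusted p = 3.36e-05), Eppk1 (-1.34 ± 0.13, adjusted p = 1.49e-08) and the plakophilin gene Pkp2 (-0.94 ± 0.13, adjusted p = 3.70e-06). The linkers' median log2 fold change was -0.34 in the first comparison and -0.61 in the second, beside -0.01 and 0.00 over all genes. Both comparisons use the same tumor shRenilla libraries. Dsp averaged 38.1 ± 4.77 CPM in lung shRenilla, 28.6 ± 1.16 CPM in tumor libraries labelled shAsns-1 and 67.6 ± 6.16 CPM in tumor shRenilla.

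Of the 7 tested other intermediate filament genes, 2 were higher and 1 lower in tumor libraries labelled shAsns-1 than in shRenilla, near the 33.9% called among all genes. Vim (0.66 ± 0.12, adjusted p = 0.00012) and the lamin gene Lmna (0.46 ± 0.16, adjusted p = 0.0278) were higher and the nestin gene Nes was lower (-0.60 ± 0.18, adjusted p = 0.00989). In lung against tumor with shRenilla, 1 of the 7 was higher and 1 lower, beside 21.8% of all genes called. The higher one was the peripherin gene Prph, at 0.378 ± 0.115 CPM in lung and 0.096 ± 0.042 CPM in tumor (1.94 ± 0.49, adjusted p = 0.00538). The lower one was Nes (-0.73 ± 0.18, adjusted p = 0.00351), and Vim was not called (0.19 ± 0.12, adjusted p = 0.262). Genes of the cornified envelope, the end product of stratified epithelium, were under 1 CPM in every library for 18 of the 20 in the table. The 2 that were tested were Sfn, for the protein stratifin, and Sbsn, for suprabasin. Both were lower in tumor libraries labelled shAsns-1 than in shRenilla, Sfn by -1.68 ± 0.26 (adjusted p = 2.23e-05) and Sbsn by -0.92 ± 0.33 (adjusted p = 0.0325), and Sfn was lower in lung than in tumor with shRenilla (-1.29 ± 0.26, adjusted p = 0.00056).

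Lineage genes of the mammary gland were called in both directions, beside 33.9% of all genes called for tumor shAsns-1 against shRenilla and 21.8% for lung against tumor with shRenilla. In tumor libraries labelled shAsns-1 against shRenilla, 2 of 7 tested luminal genes were higher and 2 lower, with the casein gene Csn3 at 1.76 ± 0.33 (adjusted p = 0.000201) and the transcription factor genes Foxa1 at -1.46 ± 0.21 (adjusted p = 8.91e-06) and Elf3 at -1.44 ± 0.22 (adjusted p = 1.19e-05). Of 8 tested basal genes 1 was higher and 3 were lower, with Procr, a mammary stem cell marker, at -1.31 ± 0.19 (adjusted p = 1.11e-05), the integrin gene Itgb4 at -0.84 ± 0.25 (adjusted p = 0.0101) and the growth factor receptor gene Egfr at -0.76 ± 0.22 (adjusted p = 0.00927). In lung against tumor with shRenilla, 1 luminal gene was higher and 2 were lower: Csn3 at 1.15 ± 0.34 (adjusted p = 0.0149), Elf3 at -1.26 ± 0.21 (adjusted p = 8.36e-05) and Foxa1 at -0.62 ± 0.20 (adjusted p = 0.0274). There 3 basal genes were higher and 2 lower. The contractile genes Tagln (1.48 ± 0.25, adjusted p = 7.78e-05) and Mylk (1.19 ± 0.18, adjusted p = 1.75e-05) were higher in this comparison, in which Krt14 and Krt17 were lower. Itgb4 was lower (-1.18 ± 0.25, adjusted p = 0.00115). In tumor libraries labelled shAsns-1 against shRenilla, where Krt14 and Krt17 were also lower, Mylk was higher (0.75 ± 0.18, adjusted p = 0.00232). Tagln was not called there (-0.53 ± 0.29, adjusted p = 0.157). Trp63, which encodes the p63 factor that drives Krt5 and Krt14 in basal epithelium, was under 1 CPM in all libraries, at 0.244 ± 0.135 CPM in lung shRenilla and 0.290 ± 0.097 CPM in tumor shRenilla. So Krt14 was present in these cells at levels up to 55.5 CPM without Krt5 and with little Trp63.

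Markers of other cells were low but not equal between the sites. The summed level of 9 fibroblast markers was 34.3 to 69.9 CPM in lung libraries labelled shAsns-1, 23.9 to 27.1 CPM in lung shAsns-2 and 26.4 to 51.3 CPM in lung shRenilla, against 24.0 to 32.4 CPM in tumor libraries labelled shAsns-1, 16.3 to 20.9 CPM in tumor shAsns-2 and 15.7 to 18.2 CPM in tumor shRenilla. Of the 9, 4 were under 1 CPM in all libraries. The summed level of the 7 leukocyte markers in the table was 3.74 to 10.4 CPM in lung libraries labelled shAsns-1, 2.91 to 4.44 CPM in lung shAsns-2 and 4.24 to 4.62 CPM in lung shRenilla. It was 1.42 to 2.54 CPM in tumor libraries labelled shAsns-1, 2.78 to 3.47 CPM in tumor shAsns-2 and 2.17 to 3.78 CPM in tumor shRenilla. Their part in the keratin differences was not tested. In tumor shAsns-1, where Krt7 and Krt14 were low, the fibroblast sum was above that of tumor shRenilla, and the leukocyte sum overlapped that of tumor shRenilla at its lower end. Of the 4 fibroblast markers tested in this comparison, 1 was called, Pdgfra, which was higher (0.79 ± 0.15, edgeR adjusted p = 0.000287). Dcn (1.055 ± 0.607), Col3a1 (-0.47 ± 2.06) and Col1a2 (-0.14 ± 0.67) were not called. In lung against tumor with shRenilla, edgeR called 21.8% of all genes. There Dcn (2.18 ± 0.56, adjusted p = 0.00576) and Pdgfra (1.05 ± 0.15, adjusted p = 1.255e-05) were higher. Col3a1 (3.179 ± 1.275) and Col1a2 (0.15 ± 0.66) were not called. Of 3 tested leukocyte markers, Lyz2 was higher there (2.23 ± 0.48, adjusted p = 0.00132) and 2 were not called.

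Genes were ranked by how closely their log2 CPM followed Krt18, Krt14 and Krt7 over the 24 libraries, which share their cell line, kit and 6 groups. Pearson's r is given as a description, first over all libraries and then after the group means were subtracted. The 5 nearest to Krt18, the most abundant simple member, were Tfg (0.82 and 0.86), Nfu1 (0.80 and 0.87), Gstz1 (0.79 and 0.86), Zbtb25 (0.78 and 0.81) and Idh3g (0.77 and 0.88). Their likeness was as high within groups as between them, which is where Krt18 itself varied. Among the 5 nearest to Krt14 were Adam12 (0.98 and 0.50), Rgs16 (0.97 and 0.85), Il24 (0.97 and 0.58) and Cxcl16 (0.97 and 0.50). Among the 5 nearest to Krt7, a gene added to this ranking after its values were seen, were Macc1 (0.98 and 0.59), Fgfbp1 (0.97 and 0.44), Cdh1 (0.97 and 0.32) and Epcam (0.97 and 0.36). Cdh1 and Epcam were, like Krt7, lower in tumor libraries labelled shAsns-1 than in tumor shRenilla (-2.64 ± 0.18, adjusted p = 4.14e-11, and -2.003 ± 0.15, adjusted p = 1.49e-10). For Krt14 and Krt7 the likeness rested largely on the difference between groups. Among the members, Krt7 and Krt14 had 0.89 over all libraries and 0.05 after group means were subtracted, while Krt7 and Krt8 had 0.25 and 0.79. Krt7 thus went with Krt14 between groups and with Krt8 among the libraries of a group.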

How the data were processed

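RNA of 24 libraries was prepared with Trizol and the NuGEN Ovation RNAseq V2 kit, per the labels' protocols. The authors deposited raw counts per gene symbol, and the submitters' processing notes name Bowtie2, HTSeq and mm10; versions, annotation and strand setting are not given in the sources used here. The deposited counts were used unchanged and tested with edgeR 4.0.16 in R 4.3.3: all 24 libraries in 1 robust quasi-likelihood model with a mean for each group, after TMM normalization and filterByExpr (12625 genes kept), and Benjamini-Hochberg adjustment over all of these genes (threshold 0.05). SE is the size of the log2 fold change divided by the root of F. CPM uses TMM-scaled library sizes; levels per kb use the GENCODE M21 principal transcript. Likeness used log2 CPM with a prior count of 2. The biological coefficient of variation was 14.9%. No 2 libraries of a group agreed within sampling noise (lowest chi-square per degree of freedom 4.74). Exact tests of 4 against 4 cannot give less than p = 0.0286.

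The members, gene lists and comparisons were chosen with earlier results of these data known. Named genes were all 10 members, other keratins that passed the filter, and of each companion list the 3 called genes with the largest change in 2 comparisons; likeness named the 5 nearest genes, of which some are not reported here. As alternatives, edgeR was run with DESeq2's size factors, unfiltered, on the compared groups only, with a replicate block, with GC and length offsets, without both libraries that stood apart and without each library in turn; DESeq2 1.42.0 and limma 3.58.1 (weighted libraries) were run too. The fit was tested on simulated counts. Deviations from group means were about as alike between libraries of the same letter as between libraries of different letters. Over 60 pairs with the same letter from different groups their correlation had a median of 0.01, from -0.41 to 0.46. Over 180 pairs with different letters it had a median of 0.001, from -0.39 to 0.58. These values cannot show whether libraries of a letter share an animal, culture or preparation. Figures were drawn with matplotlib.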

Additional observations from a re-analysis of the deposited data

Results flagged for a closer look

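Lung shRenilla B was far below the other 3 libraries of its group for 4 of the 6 tested keratins: Krt7 at 8.08 CPM, Krt8 at 140.2 CPM, Krt18 at 206.8 CPM and Krt19 at 2.12 CPM. The gap to the nearest library, as a share of the group's range, was above the 95% critical value for 4 samples. These were 4 flags in 36 groups of a gene and 4 libraries; chance flags about 1 in 20 such groups, and the 4 share a single library, so they are not independent. The other 3 lung shRenilla libraries lay between 321 and 328 CPM for Krt18 and between 195 and 197 CPM for Krt8.

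The difference between libraries labelled shAsns-1 and shRenilla was not the same in lung as in tumor for 3 keratins, by the edgeR test of the difference itself. It was more positive in lung by 1.38 on the log2 scale for Krt7, by 3.09 for Krt14 and by 3.30 for Krt17.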

How the results depend on the processing

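No gene's call changed direction under any alternative. Of 1040 values for single genes with 1 library left out, 26 lost their call and 10 gained one; of 876 under other settings, 6 lost and 38 gained. The number of members called for the libraries labelled shAsns-1 against shRenilla in lung was 1, but 2 by limma, 0 with no filter or only the compared groups, and 0 to 1 with a library left out. For lung shAsns-2 against shRenilla it was 0, but 1 by limma, which called 1548 of all genes there. Between the hairpins in lung it was 1, but 4 by limma, 0 with no filter or only the compared groups, 3 without the libraries that stood apart, and 0 to 3 with a library left out. For lung against tumor it was 3 with shRenilla and 3 with shAsns-2, but 5 by limma in each; in libraries labelled shAsns-1 it was 1, but 2 by DESeq2, 3 by limma, 4 with only the compared groups, 3 without the libraries that stood apart and 3 with GC and length offsets. The shAsns-1 difference between sites had 3, but 4 by limma and 5 without those libraries. The number of all genes called changed with the setting too. The main fit tested 12625 genes and the others 12027 to 21371. In lung, shAsns-1 against shRenilla had 26 genes called, but 758 by limma, 20 with no filter and 1 with only the compared groups. Between the hairpins in lung 33 were called, but 1924 by limma, 22 with no filter and 6 with only the compared groups. Without the libraries that stood apart, 180 were. For lung against tumor, limma called 4595 genes with shRenilla and the main fit 2749, and with shAsns-2 they called 5041 and 2642. In libraries labelled shAsns-1 the main fit called 1079, DESeq2 1434, limma 4116 and a fit of the compared groups 3683. There 3015 were called without the libraries that stood apart and 1884 with GC and length offsets. The shAsns-1 difference between sites had 1797, but 3676 by limma and 2651 without those libraries. The cause of these changes was not tested. The replicate block left the member count at 4 for tumor libraries labelled shAsns-1 against shRenilla and at 3 for lung against tumor with shRenilla; it changed no member's call and ended that of Krt13 in lung against tumor with shAsns-2 (adjusted p = 0.057). Without Krt14, the log2 ratio of basal to simple keratins was -9.27 in lung shAsns-1, -9.58 in lung shAsns-2, -9.52 in lung shRenilla, -10.99 in tumor shAsns-1, -7.97 in tumor shAsns-2 and -7.29 in tumor shRenilla; in plain counts it was -5.58 in lung shAsns-1. Of 11 comparisons, Krt8 and Krt18 were called in none by the edgeR fit of all libraries. Without the libraries that stood apart Krt8 was called in 3 and Krt18 in 4, and by limma Krt8 in 2 and Krt18 in 5; GC and length offsets called Krt8 in 1, as did a fit of the compared groups alone. Depth limits Krt5, Krt6a, Krt20 and Krt80, which had too few counts for a test.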
